A study of Mus musculus with 5 samples.

Results

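Ctbp2, Stx3 and Rab3a are 3 genes of the ribbon synapse, the output synapse of photoreceptors. They were followed here probe by probe in adult mouse retina against newborn mouse cortex. The members were every probe to which the platform annotation gives 1 of these 3 symbols and no other symbol. That rule found 5 of the 21446 probes in the deposited table: probes 6440 and 17155 for Stx3, probes 9931 and 21781 for Ctbp2, and probe 7670 for Rab3a. All 5 had a value on every array, as did 20282 probes in all, which gave 8798 named genes. The retina pool was total RNA of adult C57/B6 mice, and the cortex pool was total RNA of Swiss-Webster mice on postnatal day 1. Each of the 5 two-colour Agilent arrays carried both pools, retina in Cy5 and cortex in Cy3. The arrays are technical replicates of 1 pool per tissue, so the p-values below measure the spread between arrays and not that between animals. Tissue, age, strain and dye changed together, and cannot be told apart.

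Ratios are log2 ratios of retina over cortex, converted from the deposited values, which were read as log10. This base is likely and not stated, and the direction is likely too, since the dyes and the titles both put retina first. A probe or gene is called higher or lower only where limma found its ratio beyond 2-fold, a log2 of 1, at an adjusted p below 0.05; this is the 2-fold test. In pooled tissue, fewer cells of a type and less RNA per cell cannot be told apart.

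Photoreceptors release glutamate continuously and hold synaptic vesicles on a plate-like ribbon anchored at the active zone. Ctbp2 encodes both the nuclear corepressor CtBP2 and, from an internal promoter, RIBEYE, the main protein of the ribbon, and these proteins share their C-terminal part. Stx3 encodes syntaxin 3, the plasma membrane SNARE of ribbon synapses of the retina, which stands there in the place of the syntaxin 1 of conventional synapses. Rab3a encodes a small GTPase on synaptic vesicles, found at ribbon and conventional synapses alike.

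The windows around the annotated starts of the 3 genes are shown because both Stx3 and Ctbp2 were higher in retina and because Ctbp2 has alternative starts. They come from RefSeq, build GRCm38.p6, run 5′ to 3′ on the gene's strand, and hold 250 bases before and 50 after the start. Capitals mark TAATCC or its reverse complement GGATTA, the core letters bound by the photoreceptor homeodomain factors CRX and OTX2. The outer Ctbp2 start lies at chr7:133081811-133082110 on the minus strand, and the inner one at chr7:133015198-133015497 on the minus strand. The Stx3 window is chr19:11819354-11819653 on the minus strand, and those of Rab3a are chr8:70754453-70754752 on the plus strand and chr8:70754852-70755151 on the plus strand.
Ctbp2 outer start: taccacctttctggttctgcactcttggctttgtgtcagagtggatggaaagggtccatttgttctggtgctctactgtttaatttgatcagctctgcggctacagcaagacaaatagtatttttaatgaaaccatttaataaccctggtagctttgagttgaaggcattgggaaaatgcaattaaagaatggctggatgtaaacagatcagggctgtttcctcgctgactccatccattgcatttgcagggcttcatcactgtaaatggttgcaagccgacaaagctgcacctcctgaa
Ctbp2 inner start: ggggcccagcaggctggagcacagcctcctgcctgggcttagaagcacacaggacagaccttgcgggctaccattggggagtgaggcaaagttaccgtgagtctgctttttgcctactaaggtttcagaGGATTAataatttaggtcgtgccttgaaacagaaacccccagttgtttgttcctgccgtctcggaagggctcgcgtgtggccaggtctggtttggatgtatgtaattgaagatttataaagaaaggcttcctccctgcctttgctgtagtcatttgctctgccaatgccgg
Stx3: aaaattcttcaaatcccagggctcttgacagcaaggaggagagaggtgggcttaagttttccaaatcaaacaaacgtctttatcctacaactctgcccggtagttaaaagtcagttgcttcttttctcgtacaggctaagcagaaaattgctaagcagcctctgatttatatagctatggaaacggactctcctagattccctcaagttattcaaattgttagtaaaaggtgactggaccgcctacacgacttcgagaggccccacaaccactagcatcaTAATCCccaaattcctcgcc
Rab3a first start: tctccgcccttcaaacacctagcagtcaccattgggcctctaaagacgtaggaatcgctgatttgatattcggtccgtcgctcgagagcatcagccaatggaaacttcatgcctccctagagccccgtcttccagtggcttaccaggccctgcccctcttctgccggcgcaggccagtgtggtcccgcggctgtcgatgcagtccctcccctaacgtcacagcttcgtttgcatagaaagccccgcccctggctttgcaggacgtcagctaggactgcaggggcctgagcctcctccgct
Rab3a second start: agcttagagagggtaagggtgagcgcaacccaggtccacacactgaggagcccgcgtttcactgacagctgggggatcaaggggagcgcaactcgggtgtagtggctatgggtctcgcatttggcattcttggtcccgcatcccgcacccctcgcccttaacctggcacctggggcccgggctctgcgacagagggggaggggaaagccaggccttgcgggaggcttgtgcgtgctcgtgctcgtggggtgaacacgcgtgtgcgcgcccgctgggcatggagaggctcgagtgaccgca

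The inner Ctbp2 window held 1 match, GGATTA, beginning 121 bases before the start. The Stx3 window held 1 match, TAATCC, beginning 30 bases after it. The outer Ctbp2 window and both Rab3a windows held 0 matches. Of all 32851 windows of the same length in the table, 2320 or 7.06% held the letters on either strand. A match is a description of these letters, and nothing here measured binding. The files used here do not place the array probes on transcripts, so it is unknown whether a Ctbp2 probe reads the CtBP2 transcript, the RIBEYE transcript or both.

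All 4 single-symbol probes of Stx3 and Ctbp2 were higher in the retina pool, by 2.77-fold to 12.9-fold. The Rab3a probe, at 1.57-fold, did not pass the 2-fold test. Probes listed for Ctbp2 together with another gene entered no comparison, and had mean log2 ratios from -0.19 to 0.26. Over all 20282 probes tested, 2.08% were called higher.

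Stx3 probe 6440 read 3.54, 3.65, 3.79, 3.70 and 3.76 on arrays 1 to 5. Its mean of 3.69 ± 0.10 (SD, n = 5 arrays), or 12.9-fold higher in retina, passed limma's 2-fold test with an adjusted p of 5.63e-07. Only 4 of the 20282 probes tested had a higher mean. Array by array it stood at rank 12, 5, 5, 3 and 4 from the top, so its place among the most retina-biased probes held on each array.

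The other Stx3 probe, 17155, read 1.28, 1.51, 1.38, 1.4995 and 1.68, with a mean of 1.47 ± 0.15 (SD, n = 5) or 2.77-fold higher in retina. It also passed limma's 2-fold test, with an adjusted p of 0.00238, at rank 290 from the top. The highest value of this probe lay far below the lowest value of probe 6440. On each array probe 6440 exceeded it, by 2.08 to 2.41 log2, with a mean difference of 2.22 ± 0.13 (SD, n = 5), a factor of 4.66. The exact sign-flip permutation test over the arrays gave a two-sided p of 0.062, the smallest that 5 arrays allow. Among 2086 genes with several probes, the median distance between the lowest and the highest probe mean was 0.38 log2, and 0.815% had a wider one than Stx3. Splice forms of Stx3 are known, syntaxin 3B being the retinal one, and which forms the probes read was not tested.

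Ctbp2 probe 21781 read 1.92, 1.99, 2.00, 1.95 and 2.08 on arrays 1 to 5, with a mean of 1.99 ± 0.06 (SD, n = 5), or 3.97-fold higher in retina. Ctbp2 probe 9931 read 1.70, 1.71, 1.80, 1.56 and 1.57, with a mean of 1.67 ± 0.10 (SD, n = 5), or 3.18-fold higher. The adjusted p of limma's 2-fold test was 3.32e-06 for probe 21781 and 8.27e-05 for probe 9931. The values of the pair did not overlap, yet they lay close: the difference was 0.32 ± 0.13 log2 (SD, n = 5), from 0.20 to 0.51 on single arrays, with an exact permutation p of 0.062. A distance at least as wide was common, since 56.0% of genes with several probes had a wider one.

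Rab3a probe 7670 read 0.70, 0.66, 0.63, 0.62 and 0.66, all above 0 and all below 2-fold. Its mean was 0.65 ± 0.03 (SD, n = 5), or 1.57-fold, with an adjusted p of 1 in limma's 2-fold test. Against a ratio of 0, limma gave an adjusted p of 3.74e-06. That test called 65.6% of all probes, so it says little of Rab3a beyond how small a ratio the arrays resolve. In order of the mean the probe stood at rank 1371, where 6.75% of probes were higher.

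**Figure D1:**
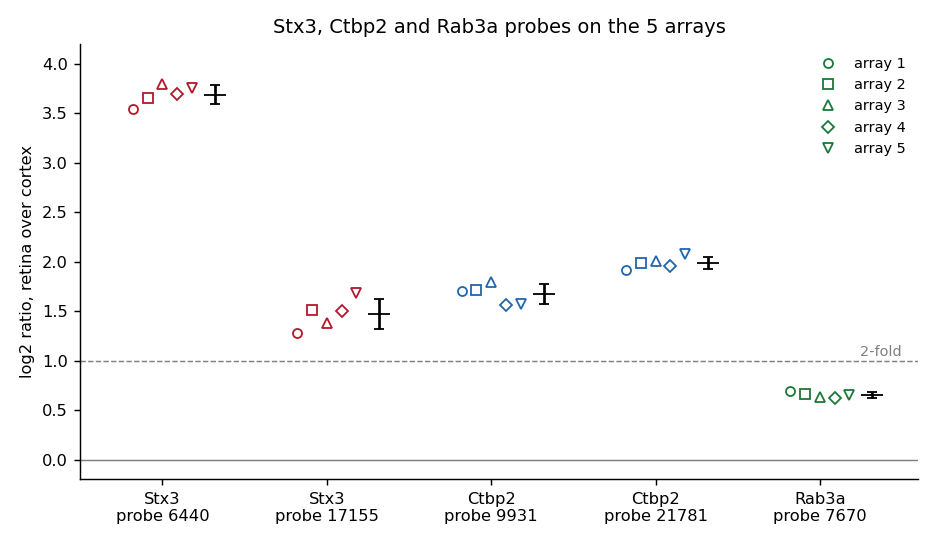
Log2 ratio of retina over cortex (y axis) of each Stx3, Ctbp2 and Rab3a probe (x axis) on arrays 1 to 5 (open symbols), with the mean and SD in black. The dashed line marks 2-fold: every value of the 4 Stx3 and Ctbp2 probes lies above it and every Rab3a value below it, and the pair of Stx3 probes is 2.22 log2 apart.

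The series asked how far expression values vary within a platform. Of these probes, only Rab3a and Ctbp2 probe 21781 spread clearly less than the median probe. The SD between arrays was 0.03 log2 for Rab3a, smaller than in all but 3.84% of probes. It was 0.06 for Ctbp2 probe 21781, 0.10 for Ctbp2 probe 9931, 0.10 for Stx3 probe 6440 and 0.15 for Stx3 probe 17155, against a median of 0.10 over all probes. The noisiest of the 5, probe 17155, was at the 69.5th percentile. No array was high or low for all of them. Array 5 was the highest for Stx3 probe 17155 and Ctbp2 probe 21781, array 3 for Stx3 probe 6440 and Ctbp2 probe 9931, and array 1 for Rab3a. Array 1 was the lowest for both Stx3 probes and Ctbp2 probe 21781, and array 4 for Ctbp2 probe 9931 and Rab3a.

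**Figure D2:**
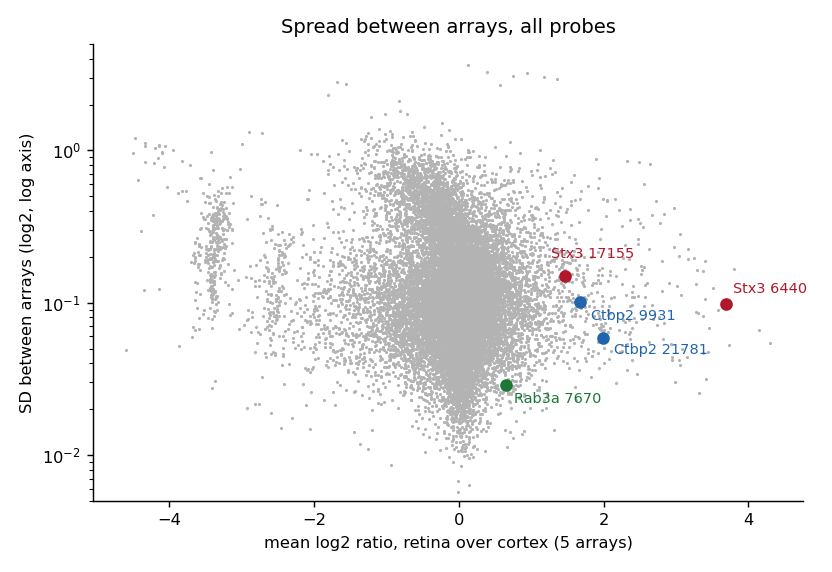
SD between the 5 arrays (y axis, log scale, log2 units) against the mean log2 ratio of retina over cortex (x axis) for all 20282 probes (grey), with the Stx3, Ctbp2 and Rab3a probes in colour. Rab3a has one of the smaller SDs at 0.03, and Stx3 probe 6440 lies at the far right at 3.69 with an SD of 0.10, near the median.

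Whether the 3 genes differ from each other was asked within arrays, on the mean over the probes of each gene. Stx3 exceeded Rab3a by 1.92 ± 0.13 log2 (SD, n = 5) and Ctbp2 exceeded Rab3a by 1.17 ± 0.06, on 5 of 5 arrays in both cases. Stx3 exceeded Ctbp2 by 0.75 ± 0.12, from 0.60 to 0.90 on single arrays. That order rests on Stx3 probe 6440: with the lower probe of each gene, Stx3 stood 0.20 log2 below Ctbp2. Over 5 differences tested, 3 between genes and 2 between probes of a gene, each exact two-sided p was 0.062, as was each adjusted p, so none could pass a threshold of 0.05.

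The measured relatives of Stx3 and Ctbp2 all lay below them, while those of Rab3a lay on both sides of it. Of 10 other syntaxins measured, 2 were lower in retina and none was higher, with a median of -0.15, while over all 8798 genes 2.8% were higher, 3.83% were lower and the median was 0.00. Stx1a, the SNARE of conventional synapses, read -1.28, -1.24, -1.29, -1.23 and -1.27 on arrays 1 to 5. Its mean of -1.26 ± 0.03 was 2.40-fold lower in retina, with an adjusted p of 3.19e-04 in limma's 2-fold test. With the arrays scaled to a common spread it missed that test, at -1.28 with an adjusted p of 0.0686. Stx1a and Stx3 thus lay on opposite sides of 0 on every array, 3.84 ± 0.11 log2 apart (SD, n = 5). The exact permutation p of that distance was 0.062.

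The endosomal syntaxin gene Stx7 was lower too, at -1.24 ± 0.10 (limma's adjusted p 0.0091), and its probes stood at -1.63 and -0.85. Stx12, another endosomal syntaxin, was at -0.996 ± 0.12 and did not pass. The plasma membrane syntaxins Stx4a (0.56 ± 0.02) and Stx2 (-0.18 ± 0.09) did not pass. Neither did the Golgi and endoplasmic reticulum forms Stx16 (0.25 ± 0.07), Stx5a (0.12 ± 0.29) and Stx18 (-0.08 ± 0.05), nor Stx17 (-0.14 ± 0.03) and Stx8 (-0.17 ± 0.32). Stx3 exceeded all 10 on every array. The nearest was Stx4a, 2.01 ± 0.11 below it. Against the lower Stx3 probe alone, Stx4a, at most 0.59, also stayed below its lowest value of 1.28.

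Ctbp1, the paralog of Ctbp2 whose protein is a corepressor and also occurs at synapses, read -1.19, -1.14, -1.05, -1.19 and -0.75. Its mean was -1.07 ± 0.19 (SD, n = 5), and it did not pass limma's 2-fold test, with an adjusted p of 1. Ctbp2 exceeded Ctbp1 by 2.89 ± 0.18 log2 (SD, n = 5), and their values did not overlap on any array. The exact permutation p was 0.062.

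Of 4 measured relatives of Rab3a, 1 was higher and 1 was lower, beside 2.8% higher and 3.83% lower over all genes. Rab27a, a Rab of secretory granules and melanosomes, was higher at 1.25 ± 0.11, with an adjusted p of 0.0103 in limma's 2-fold test. Without array 4 it no longer passed, at 1.24 with an adjusted p of 0.0533. Rab3b, a close paralog, was lower at -1.21 ± 0.02, with an adjusted p of 7.95e-04. With the arrays scaled to a common spread Rab3b did not pass limma's test, at -1.22 with an adjusted p of 0.0851. Rab3d (-0.26 ± 0.09) and Rab27b (0.18 ± 0.07) did not pass. The distance of Rab3a above Rab3b was 1.86 ± 0.02 log2 (SD, n = 5), and Rab3a lay 0.60 ± 0.12 below Rab27a. In all, 15 such differences from family members were tested over the 5 arrays, and each had the exact p of 0.062, the smallest possible.

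**Figure D3:**
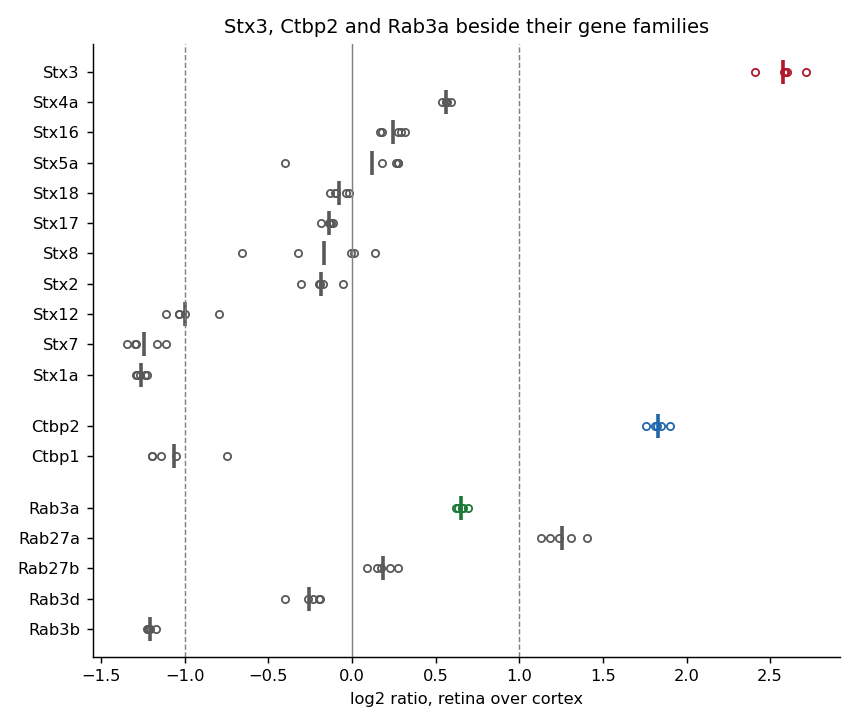
Log2 ratio of retina over cortex (x axis) of Stx3, Ctbp2 and Rab3a (coloured) and of the measured members of their families (grey), with open circles for the 5 arrays and a bar for the mean. Stx3 and Ctbp2 lie right of the dashed 2-fold line and above every relative drawn with them, while Rab3a lies between Rab27b and Rab27a.

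The proteins with which syntaxin 3 works in vesicle fusion were described from a list of 22 measured SNARE partners and fusion regulators. Of these, 3 were higher, 0 were lower and 19 did not pass, with a median of 0.36 and 17 of 22 above 0. For this list and those below, the shares over all 8798 genes were 2.8% higher and 3.83% lower, with 4349 genes above 0. Both higher Munc13 genes prime vesicles for release: Unc13b at 1.48 ± 0.11 and Unc13c at 1.32 ± 0.08, with adjusted p of 4.42e-04 and 0.00123 in limma's 2-fold test. The third was Nsf, the ATPase that takes used SNARE complexes apart, at 1.21 ± 0.08. Its probes stood at 1.98 and 0.44, and with the lower one it did not pass. Nor did Nsf pass with the arrays scaled to a common spread (1.23, limma's adjusted p 0.137). Those farthest below 0 were Syt11, a synaptotagmin that does not bind calcium, at -0.46 ± 0.09, the SNARE-binding Stxbp6 at -0.35 ± 0.09 and the C2 domain gene Doc2a at -0.20 ± 0.07.

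Regulators and effectors of Rab3 gave 1 higher gene of 12 measured and 0 lower, with a median of -0.01. The higher one was Madd, an exchange factor that loads Rab3 with GTP, at 1.73, 1.60, 1.64, 1.67 and 1.60 on arrays 1 to 5. Its mean of 1.65 ± 0.05 (SD, n = 5), or 3.13-fold higher in retina, passed limma's 2-fold test with an adjusted p of 9.05e-06, and its probes stood at 1.56 and 1.73. The ratio of Madd thus exceeded that of Rab3a itself on every array. Rab3ip, an exchange factor of Rab8 that also binds Rab3a, stood at 0.98 ± 0.02, close to 2-fold without passing. The Rab3 effector rabphilin, Rph3a, was at 0.49 ± 0.03. Below 0 lay the Rab recycling factor Gdi2 (-0.53 ± 0.11), Rabif (-0.36 ± 0.12) and the Rab escort gene Chm (-0.26 ± 0.11), none of which passed.

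Of 34 listed ribbon and active zone genes, 20 were not measured, so the counts cover only a part of the list. Among the 14 measured, 1 was higher and 0 were lower, with a median of -0.09. It was Cacnb2, the beta subunit of the calcium channel that triggers release in photoreceptors, at 1.57 ± 0.11 or 2.96-fold higher in retina. Its adjusted p in limma's 2-fold test was 2.18e-04. Arl3, a small GTPase of photoreceptor protein trafficking, stood at 1.01 ± 0.08, and the active zone scaffold gene Erc2 at 0.22 ± 0.12. Lowest were Dag1, whose product dystroglycan stands in the photoreceptor synaptic cleft, at -0.65 ± 0.03, the kinesin motor gene Kif3a at -0.63 ± 0.03 and the calcium channel gene Cacna1d at -0.37 ± 0.22. None of these 5 passed. The Cacna1d probes stood at -0.80 and 0.05.

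Synaptic vesicle genes were close to background, with 1 of 23 higher and 0 lower and a median of -0.04. The higher one was the secretory carrier gene Scamp5 at 1.21 ± 0.06 (limma's adjusted p 0.00391), which did not pass with the arrays scaled to a common spread (1.22, limma's adjusted p 0.0519). The vacuolar proton pump subunit genes Atp6v1b2 (0.68 ± 0.11) and Atp6v0a1 (0.43 ± 0.05) did not pass. Without array 4, where its other probe also counts, Atp6v0a1 stood at 0.20. The synaptogyrin gene Syngr3 (-1.10 ± 0.13), the adaptor subunit gene Ap2b1 (-0.67 ± 0.08) and the synapsin gene Syn2 (-0.41 ± 0.11) did not pass either. The Ap2b1 probes stood at -1.13 and -0.22.

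The nuclear partners of the CtBP corepressors gave 1 lower gene of 17 and 0 higher, with a median of -0.06. Bcl11b, a zinc finger factor of cortical projection neurons, was lower at -1.47 ± 0.04, with an adjusted p of 2.80e-05 in limma's 2-fold test and probes at -2.06 and -0.89. The deacetylase Hdac1 (1.04 ± 0.12), the methyltransferase Ehmt1 (0.33 ± 0.04, probes at -0.07 and 0.73) and the CoREST gene Rcor1 (0.26 ± 0.04) were the farthest above 0. Tle1, another corepressor, was at -0.86 ± 0.10 and the zinc finger gene Prdm16 at -0.83 ± 0.08. These 5 did not pass. The 8 lists together hold 190 genes, of which 87 were not measured. Over all 8 lists, 7 of 103 measured genes were higher, or 6.80% against the 2.8% of all genes given above. A further 4 were lower, where 3.83% of all genes were, and the median was -0.04. The lists were chosen with earlier results of these data known, so these shares are a description only. No measured gene in the 8 lists had a mean over its probes as high as those of Stx3 or Ctbp2, the highest being Madd. Single probes broke that order: Stx3 probe 17155 alone, at 1.47, lay below Madd, Cacnb2 (1.57) and Unc13b (1.48). Ctbp2 probe 9931 alone, at 1.67, lay below the higher Madd probe, at 1.73. The higher Nsf probe alone, at 1.98, lay above the Ctbp2 mean of 1.83.

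**Figure D4:**
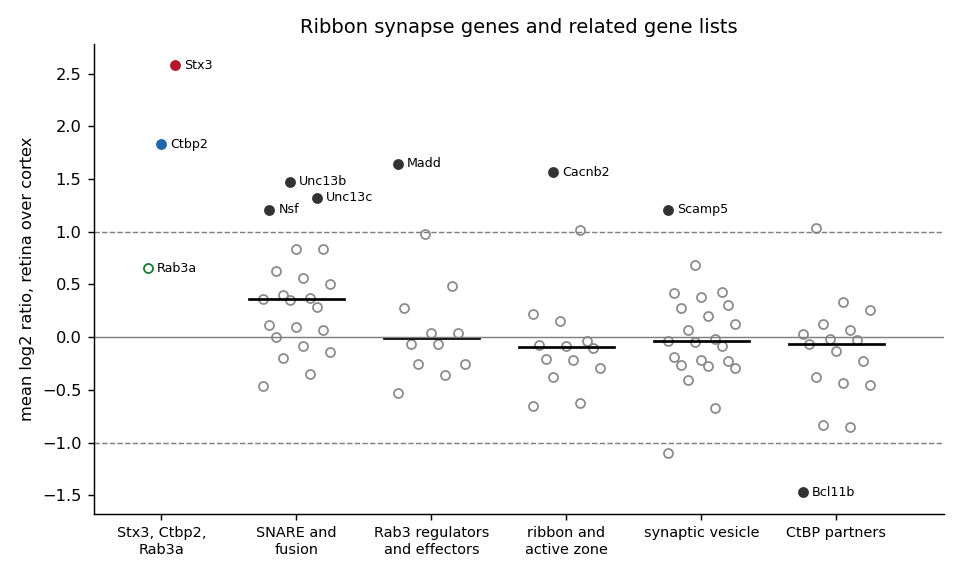
Mean log2 ratio of retina over cortex (y axis) of Stx3, Ctbp2 and Rab3a and of the genes of 5 related lists (x axis), with 1 point a gene, filled where it passed the 2-fold test, and a bar at each list's median. Dashed lines mark 2-fold. Stx3 and Ctbp2 lie above all measured genes of the 5 lists, whose medians run from -0.09 to 0.36.

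Over the 5 arrays, the genes whose values lay nearest to those of Stx3 were Plekhf2 (root mean square difference 0.07 log2), Map7 (0.10) and Lrrc2 (0.10). Nearest to Ctbp2 were Prkab1 (0.03), Fam3c (0.03) and the glycolytic aldolase Aldoa (0.06). Nearest to Rab3a were Arhgap44 (0.02), Hexim1 (0.03) and Hbp1 (0.03). With 1 pair of pools on every array, such likeness is that of a single ratio repeated 5 times.

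The labels of the pools were set against marker genes. These lists were chosen with earlier results of these data known, so they are no independent check of the labels or of the direction. Of 17 measured retinal markers, 13 were higher in retina and 0 lower, with means from 0.19 to 4.30, led by Cdhr1 of the photoreceptor outer segment at 4.30 ± 0.05. Of 19 measured markers of newborn cortex, 12 were lower and 0 higher, with means from -3.99 to 0.07. Of 22 measured markers of other cells that the pieces could hold, 3 were higher and 5 lower, from -1.86 to 1.44. The lower genes were Postn (-1.86 ± 0.27), the red cell globin Hbb-b2 (-1.66 ± 0.07), Igfbp2 (-1.41 ± 0.04), Ttr (-1.40 ± 0.04) and Dcn (-1.35 ± 0.21). The higher genes were the vessel genes Flt1 at 1.44 ± 0.08 and Kdr at 1.16 ± 0.08, and Slc2a1 at 1.29 ± 0.09. The Slc2a1 probes stood at 0.05 and 2.53. With the lower probe, or with the arrays scaled to a common spread, Slc2a1 did not pass. The vessel genes Pecam1 (0.14 ± 0.17) and Cdh5 (-0.47 ± 0.04) did not pass. Nor did the measured lens crystallin genes Crygb (1.22 ± 0.24) and Cryab (0.94 ± 0.10), though the Crygb mean exceeded that of Kdr. The part of the makeup of the tissues in the ratios of Stx3, Ctbp2 and Rab3a was not tested. Ratios hold no level of either tissue, so the amount of each transcript and its signal over background are unknown.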

How the data were processed

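The deposited table gives 1 signed value per probe and array, which was read as the log10 ratio of Cy5 over Cy3. Per the labels, retina was labelled with Cy5 and cortex with Cy3 on all 5 arrays, with no dye swap. The base is inferred because the deposited log10 values stop exactly at 2 and -2. Background correction, dye normalization, scanner software and array build stand in no source used here, and are not given. The array medians were 0 on 4 arrays and -7.32e-05 on array 5.

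Log2 ratios are the table's values times 3.32. An exact 0 counted as missing, which removed 174, 203, 214, 1068 and 406 values from arrays 1 to 5. Of 21446 probes, 11813 had 1 gene symbol, 559 several and 9074 were not listed. Symbols were updated by gene identifier through RefSeq (GRCm38.p6), which named 11782 probes. An intercept was fitted with limma 3.58.1 in R 4.3.3 to all 20282 probes with values on every array, and to the mean over the probes of each gene. It was tested against 0 (eBayes) and against 2-fold (treat), two-sided, with Benjamini-Hochberg adjustment over all probes or genes. Differences within arrays were tested by exact sign-flip permutation. The fits were run on simulated data, where 86% of rows changed by a log2 of 1.5 were recovered. Unchanged rows there had a log2 ratio of 0, so false calls near 2-fold were not tested. From each of the 8 related lists the 3 genes farthest above 0 and the 3 farthest below 0 are named, and every measured family member. Of the retinal markers only Cdhr1 is named, and of the cortex markers none. Of the markers of other cells, those that passed the 2-fold test are given, with the vessel genes Pecam1 and Cdh5 and the crystallin genes Crygb and Cryab. That choice was made after the values were seen. The genes and lists were chosen with earlier results of these data known. The entries Cast and Psd, which name genes other than those meant, were removed from the ribbon list. Alternatives covered centring, scaling, missing values, probe position, probe rule, prior, array weights, minimum fold, log base and each array left out.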

Additional observations from a re-analysis of the deposited data

Results flagged for a closer look

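On the 5 arrays, 7 of 80 measures had an array far from the other 4, where chance gives about 5% of them. None was a probe of Stx3, Ctbp2 or Rab3a. Stx5a read -0.40 on array 2 and 0.18 to 0.28 on the others. Syt11 read -0.31 on array 5, against -0.52 to -0.49 elsewhere. Arl3 read 0.87 on array 5, against 1.04 to 1.07. Atp6v1b2 read 0.86 on array 5, against 0.59 to 0.67. Syngr3 read -0.87 on array 5, against -1.19 to -1.12. Bcl11b read -1.40 on array 3, against -1.51 to -1.48. Scamp5 read 1.11 on array 3, against 1.22 to 1.27. Array 5 was the distant one in 4 of these 7 genes.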

How the results depend on the processing

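The ratios of Stx3, Ctbp2 and Rab3a kept their sign in all 140 alternative values and their side of the 2-fold test in 130. The other 10 are fixed by the log base or the minimum fold. Read as log2, the deposited values give 1.11 for Stx3 probe 6440, 0.44 for probe 17155, 0.50 for Ctbp2 probe 9931, 0.60 for probe 21781, 0.78 for the gene Stx3 and 0.55 for Ctbp2. None of these passed the 2-fold test, although probe 6440 still lay above 2-fold (limma's adjusted p 0.148). Against a minimum of 4-fold, probes 17155 (1.47), 9931 (1.67) and 21781 (1.99) and the gene Ctbp2 (1.83) did not pass. With the lower probe of each gene, Stx3 minus Ctbp2 turned to -0.20 (exact permutation p 0.1875). The other 57 alternative differences kept their sign. The counts of the related lists were also fixed largely by base and minimum fold. Read as log2, 0 genes of the 8 lists passed in either direction, and 3 probes and 3 genes in all were higher and 4 genes lower. A minimum of 4-fold also left 0 in the 8 lists, and left 88 probes and 51 genes higher and 54 genes lower. A minimum of 1.5-fold gave 12 higher and 9 lower in the 8 lists, and 1070 probes and 615 genes higher and 793 genes lower. In single lists it gave 1 lower CtBP relative, 1 higher and 3 lower CtBP partners, 3 lower syntaxins, 5 higher fusion genes, 1 higher and 1 lower Rab3 relative, 2 higher Rab3 regulators, 2 higher ribbon genes, and 1 higher and 1 lower vesicle gene. Arrays scaled to a common spread left 2 lower genes in the 8 lists, with 1 lower syntaxin (without Stx1a), 0 lower Rab3 relatives (without Rab3b), 0 higher vesicle genes (without Scamp5) and 2 higher fusion genes (without Nsf). With each array dropped in turn there were 0 to 1 higher Rab3 relatives, with 0 without array 4, and 0 to 1 lower vesicle genes, with 1 (Syngr3) without array 5. The cause of these changes was not tested. No paired analysis was possible because the 5 arrays form 1 group, and each holds both pools. Signal over background is unknown.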

Other observations

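The annotation assigns 3 further probes to Ctbp2 together with another gene, and they entered no comparison. Probe 10112, listed for Zranb1 and Ctbp2, read 0.06, -0.97, 0.34, -0.21 and -0.14 on arrays 1 to 5. Probe 21372, listed for the same pair of genes, read 0.24, 0.32, 0.23, 0.24 and 0.27. Probe 20219, listed for Mbp and Ctbp2, read 0.03, -0.41, 0.01, -0.06 and 0.05. All of these values lie below the lowest value of either Ctbp2 probe, 1.56. Which transcripts these probes read was not tested.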
